A study of Mus musculus with 6 samples.

Results

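The collagen chain genes are the genes of the deposited table whose whole symbol reads Col, a number, the letter a and a second number. There were 32 of them among 14546 listed genes, and 28 were among the 12451 genes that could be tested for a difference between genotypes. Their nascent transcription was measured by precision run-on sequencing (PRO-seq), in which engaged RNA polymerases extend their transcripts with biotin-labelled nucleotides, in cultured, proliferating mouse muscle stem cells (MuSCs). There were 3 control libraries (Ctrl, labelled Pax7CreERT/Suv4-20h1WT) and 3 mutant libraries (Kmt5b sKO, labelled Pax7CreERT/Suv4-20h1KO). Suv4-20h1 is another name of Kmt5b, the enzyme that dimethylates lysine 20 of histone H4. Both groups carry the tamoxifen-inducible Cre at the Pax7 locus and were given tamoxifen as adults on a C57BL/6 background. The Ctrl mice had wild-type Kmt5b and the mutants had both Kmt5b alleles floxed, so the deletion is limited to cells that express Pax7 and their descendants. The cells were freed from limb and trunk muscle with dispase and collagenase, enriched with magnetic beads and grown on Matrigel, an extract of basement membrane that itself contains collagen.

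A collagen is a trimer of alpha chains, and each chain has a gene of its own. Fibrillar chains (types I, II, III, V, XI, XXIV and XXVII) form the fibres of the connective tissue around muscle. Type IV forms the sheet of the basement membrane, and type VI forms beaded filaments next to that membrane. FACIT collagens decorate fibrils, multiplexins sit in basement membranes, and transmembrane collagens stay anchored in the membrane of the cell that makes them. Collagens V and VI are known parts of the niche that keeps MuSCs quiescent and able to renew.

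Each gene has 2 deposited values per library. The TSS region is the first 400 nt of the transcript and its value is in RPM, which scales the reads of every library to the same sum. The gene body is the rest of the transcript and its value is in TPM, which also divides by length, so levels of different genes are compared below in gene body TPM only. Differences are on the scale of log2(value + 0.5), mutant minus Ctrl, with a standard error (SE), and a gene was called where the Benjamini-Hochberg adjusted p over all 12451 genes was under 0.1 in limma. Because each library is scaled to a fixed sum, a change of total transcription cannot appear in these values. The labels and methods do not tie replicates of one genotype to litters, and the p-values measure the spread between these samples. The gene bodies of all listed genes held 7425424 to 16249140 reads per library and the TSS regions 926904 to 3246052, with the fewest in Kmt5b sKO replicate 2 in both. Kmt5b itself, in all listed exons and introns, had 30.6, 35.4 and 38.5 TPM in Ctrl replicates 1 to 3 against 37.8, 35.0 and 42.6 TPM in Kmt5b sKO replicates 1 to 3 in the gene body (adjusted p = 0.706, limma), so these values do not check the genotype labels.

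The promoters of 5 chains show how differently collagen genes begin. The first 3 belong to the chains with the lowest p-values between the genotypes in the TSS region, Col4a2 is shown because the start of Col4a1 lies inside the same window, and Col3a1 is shown as a strongly transcribed chain whose window holds no CpG. Each is 250 bases before to 50 after a RefSeq start, from RefSeq on GRCm38.p6, printed 5′ to 3′ on the strand of the gene. Capitals mark the TATA box, spelled TATAAA here, the CCAAT box, spelled as named, and the GC box, whose letters are GGGCGG, on either strand.
Col13a1, minus strand, chr10:61979059-61979358: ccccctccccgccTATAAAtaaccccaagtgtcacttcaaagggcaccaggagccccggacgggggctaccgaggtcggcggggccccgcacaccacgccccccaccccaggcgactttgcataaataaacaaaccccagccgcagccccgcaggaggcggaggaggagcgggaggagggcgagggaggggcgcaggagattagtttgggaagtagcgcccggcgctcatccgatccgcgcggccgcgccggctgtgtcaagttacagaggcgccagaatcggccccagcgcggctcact
Col18a1, minus strand, chr10:77166481-77166780: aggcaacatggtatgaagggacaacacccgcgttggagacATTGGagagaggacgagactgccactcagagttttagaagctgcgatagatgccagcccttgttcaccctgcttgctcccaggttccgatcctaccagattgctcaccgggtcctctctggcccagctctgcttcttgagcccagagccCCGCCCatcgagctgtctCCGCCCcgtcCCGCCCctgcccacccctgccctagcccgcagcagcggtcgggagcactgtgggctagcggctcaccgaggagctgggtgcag
Col25a1, plus strand, chr3:130180595-130180894: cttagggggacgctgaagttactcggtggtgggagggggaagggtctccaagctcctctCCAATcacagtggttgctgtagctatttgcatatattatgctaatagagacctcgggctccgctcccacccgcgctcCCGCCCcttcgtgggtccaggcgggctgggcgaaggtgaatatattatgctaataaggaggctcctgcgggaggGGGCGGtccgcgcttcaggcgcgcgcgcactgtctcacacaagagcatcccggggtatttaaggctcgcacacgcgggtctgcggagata
Col4a2, plus strand, chr8:11312555-11312854: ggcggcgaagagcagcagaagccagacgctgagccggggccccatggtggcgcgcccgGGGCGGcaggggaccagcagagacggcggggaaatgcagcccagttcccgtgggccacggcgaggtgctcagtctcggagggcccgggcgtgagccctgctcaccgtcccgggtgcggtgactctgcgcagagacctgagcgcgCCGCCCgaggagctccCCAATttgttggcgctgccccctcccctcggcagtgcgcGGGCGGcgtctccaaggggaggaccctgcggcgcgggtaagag
Col3a1, plus strand, chr1:45311288-45311587: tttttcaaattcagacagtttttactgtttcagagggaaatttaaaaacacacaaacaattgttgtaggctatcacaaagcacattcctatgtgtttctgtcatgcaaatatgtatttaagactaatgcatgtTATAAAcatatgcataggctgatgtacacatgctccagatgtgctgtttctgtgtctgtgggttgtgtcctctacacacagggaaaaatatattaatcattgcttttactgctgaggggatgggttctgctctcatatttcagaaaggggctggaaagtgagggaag
The Col13a1 window had 29 CpG and a GC content of 68.0%, with a TATA box far upstream at position -237 from the start. The Col18a1 window had 16 CpG and held 3 GC boxes at positions -61, -43 and -33. The Col25a1 window had 23 CpG and held 2 GC boxes. The Col3a1 window had 0 CpG, a GC content of 37.7% and a TATA box at position -117.

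RefSeq promoters were matched for 27 of the 32 genes, and in 23 of these the RefSeq start lay within 100 nt of the start that the deposited table uses. Col1a1, Col5a2, Col9a3, Col12a1 and Col26a1 had no entry. The median GC content of the 27 windows was 60.3%, against 53.0% over 32544 promoters of the same length, and the median number of CpG was 16 against 7. A GC box was found in 17 of 27 (63.0%), against 35.9% of all promoters. The 32544 promoters were not limited to the listed genes or to 1 start per gene. They were not matched to the chains for transcription. The other motifs were close to their share of all promoters. TATAAA was found in 4 of 27 (14.8%, against 13.6%), CCAAT in 10 (37.0%, against 37.4%) and the E-box CAGCTG, the sequence that MyoD and other myogenic factors prefer, in 5 (18.5%, against 16.4%). The AP-1 motif TGANTCA was found in 1 (3.70%, against 7.79%). All motifs were searched on both strands, and a match is a description of the sequence only.

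A small number of chains held most of the collagen signal of proliferating MuSCs. Among all listed genes, the gene body mean of Col1a2, the highest chain, lay at percentile 92.2. That of Col5a3, the lowest of the 10 highest chains, lay at percentile 51.8. The sum over all 32 chains was 337, 474 and 362 TPM in Ctrl replicates 1 to 3 against 398, 454 and 398 TPM in Kmt5b sKO replicates 1 to 3, so the groups overlapped. The 10 highest chains held 70.1% to 83.8% of that sum in each library. Only Col1a2, Col5a2, Col3a1, Col6a6 and Col5a1 averaged more than Col8a1, whose mean was 20.4 TPM. Expressed chains ran from a mean of 60.4 TPM for Col1a2 down to 0.672 TPM for Col28a1, a minor type VI-like chain. Neighbours in this order mostly could not be separated: of the 31 steps, the higher chain was higher in all 6 libraries only at the step from Col16a1 (2.49 TPM) to Col24a1 (1.31 TPM).

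**Figure D1:**
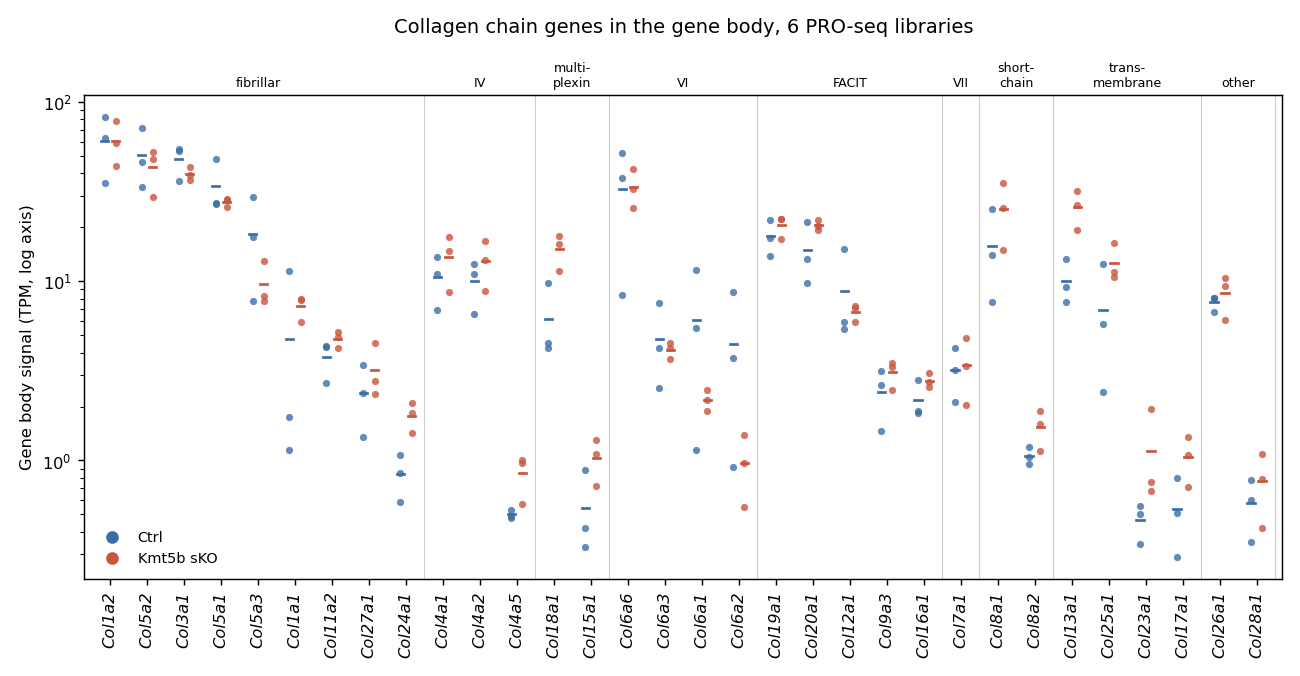
Gene body signal (TPM, log axis) of all 32 collagen chain genes in the 3 Ctrl and 3 Kmt5b sKO libraries, 1 point per library with a bar at each group mean, ordered by class and by mean. The fibrillar chains Col1a2, Col5a2 and Col3a1 are the highest, with means of 60.4, 47.0 and 44.0 TPM, and the groups of most chains overlap.

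Of the 9 fibrillar chains, those of types I, III and V led. Col1a2, the second chain of type I collagen, had gene body values of 35.5, 82.9 and 62.9 TPM in Ctrl replicates 1 to 3 against 59.4, 77.9 and 43.7 TPM in Kmt5b sKO replicates 1 to 3. Col5a2, a type V chain that sets the diameter of type I fibrils, had 33.6, 46.5 and 72.0 TPM in Ctrl against 48.2, 52.5 and 29.4 TPM in Kmt5b sKO libraries. Col3a1, the single chain of type III collagen, had 36.3, 54.9 and 53.3 TPM and then 43.6, 36.7 and 39.1 TPM. In all of these the libraries of both genotypes were interleaved, with log2 differences of 0.04 (SE 0.33), -0.20 (SE 0.32) and -0.25 (SE 0.18). Col5a1, the partner of Col5a2, had 26.8, 47.9 and 27.2 TPM in Ctrl against 28.4, 28.9 and 26.0 TPM in Kmt5b sKO libraries, so that Ctrl replicate 2 stood above 5 libraries of similar level. The third type V chain, Col5a3, had 17.6, 29.6 and 7.75 TPM in Ctrl against 13.0, 8.31 and 7.78 TPM in Kmt5b sKO libraries. Its log2 difference was -0.73 (SE 0.45), with an adjusted p of 0.505 in limma, and its lowest Ctrl library lay below every Kmt5b sKO library.

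The remaining chains among the 10 highest gene bodies come from other classes. The gene body means of Col8a1, Col19a1 and Col20a1 lay at percentiles 65.3, 63.0 and 59.9 of all listed genes. Col6a6, a chain that can take the place of Col6a3 in type VI collagen, had 51.9, 37.7 and 8.37 TPM in the gene body of the Ctrl libraries and 32.9, 25.7 and 42.1 TPM in the Kmt5b sKO libraries, and Ctrl replicate 3 was far below the other 5. Its TSS region was almost empty, with 0, 1 and 0 reads in Ctrl against 5, 1 and 13 reads in Kmt5b sKO libraries. GENCODE annotates 1 further start of Col6a6 more than 400 nt downstream. Most other chains have such starts too, and their use was not tested. Too few TSS reads lie behind these libraries for a fold, and the limma test gave an adjusted p of 0.303. Col8a1, a short-chain collagen of vessel walls and other basement membranes, had 7.66, 14.0 and 25.3 TPM in Ctrl against 25.5, 35.1 and 14.9 TPM in Kmt5b sKO gene bodies. The FACIT chain Col19a1 had 22.0, 13.9 and 17.5 TPM and then 17.2, 22.2 and 22.3 TPM. Col20a1, also a FACIT chain, had 13.4, 9.79 and 21.5 TPM and then 19.3, 20.5 and 21.9 TPM. The genotypes overlapped for each of these chains, and the adjusted p in the gene body was 0.502 for Col8a1, 0.678 for Col19a1 and 0.404 for Col20a1 in limma.

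Between the genotypes, 2 collagen chains were called higher in the TSS region of Kmt5b sKO MuSCs, Col18a1 and Col13a1, and none was called lower. This is 7.14% of the 28 tested chains, beside 0.932% of all tested genes called higher, 0.731% called lower and 1.66% in all. In the gene body 1 chain was called higher, Col13a1, and none lower (3.57% of 28, beside 1.61% of all genes called higher, 1.38% lower and 2.99% in all). At an unadjusted p under 0.05, 7 chains stood out in the TSS region (25.0%, beside 11.0% of all genes) and 3 in the gene body (10.7%, beside 15.9%). Of those in the TSS region, only Col6a2 was lower, with 15, 15 and 6 reads in Ctrl against 5, 0 and 3 in Kmt5b sKO libraries. Col6a6 rested on 0, 1 and 0 reads in Ctrl against 5, 1 and 13. The log2 difference was above 0 for 18 of 28 chains in the TSS region (64.3%, beside 58.2% of all genes) and for 20 of 28 in the gene body (71.4%, beside 53.8%). The median over the chains was 0.20 for TSS regions and 0.33 for gene bodies, beside 0.08 and 0.02 over all genes. The gene body median was 0.11 without Ctrl replicate 3, and the TSS median was 0.06 without that library, 0.33 without Ctrl replicate 2 and 0.30 without Kmt5b sKO replicate 3. The 3 Kmt5b sKO libraries lay above the 3 Ctrl libraries for 3 chains in the TSS region (10.7%, beside 10.2% of all genes) and for 4 chains in the gene body (14.3%, beside 12.0%), shares near the background. They lay below all Ctrl libraries for 0 chains, beside 5.33% (TSS region) and 9.34% (gene body) of all genes.

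Col13a1 encodes the transmembrane collagen XIII, found where muscle meets matrix and nerve, and lies at chr10:61838236-61979108 on the minus strand (GRCm38). Its TSS region had 11.1, 12.6 and 9.85 RPM in Ctrl replicates 1 to 3 against 16.7, 30.4 and 40.9 RPM in Kmt5b sKO replicates 1 to 3. Its gene body, which is 140472 nt long and 1.97% exonic, had 9.33, 13.2 and 7.62 TPM in Ctrl against 19.4, 26.5 and 32.1 TPM in Kmt5b sKO libraries. All 3 Kmt5b sKO libraries lay above all 3 Ctrl libraries in both regions. The gene body mean was 10.1 ± 2.88 TPM (SD, n = 3) in Ctrl against 26.0 ± 6.33 TPM (SD, n = 3) in Kmt5b sKO libraries, a 2.58-fold difference. On the log2 scale the difference was 1.33 (SE 0.25, adjusted p = 0.0744, limma) in the gene body and 1.27 (SE 0.34, adjusted p = 0.0853, limma) in the TSS region. The TSS region held 22 to 89 reads per library and the gene body 1530 to 4296. The TSS call held in limma without Ctrl replicate 2 and was lost without any other single library (adjusted p = 0.0618 to 0.344). Of all genes, 408 were called without Ctrl replicate 2 and 1 to 270 without each of the others, against 207 with all libraries. The gene body call held without Ctrl replicate 2 or 3 and was lost without Ctrl replicate 1 or any Kmt5b sKO replicate (adjusted p up to 0.238, limma). Its log2 difference stayed between 0.98 and 1.62 in the TSS region and between 1.16 and 1.54 in the gene body when libraries were left out.

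Col18a1 encodes the multiplexin collagen XVIII, a heparan sulphate proteoglycan of basement membranes from which endostatin is cut, and lies at chr10:77052178-77166548 on the minus strand. Its TSS region had 6.29, 8.04 and 4.74 RPM in Ctrl against 16.1, 17.8 and 29.4 RPM in Kmt5b sKO libraries. Its gene body had 4.55, 9.78 and 4.25 TPM in Ctrl against 11.4, 16.2 and 17.9 TPM in Kmt5b sKO libraries. The groups did not overlap in either region. In the TSS region the difference was 1.63 (SE 0.36, adjusted p = 0.0484, limma), with 14 to 64 reads per library. In the gene body it was 1.3 (SE 0.32), and the adjusted p of 0.118 in limma did not pass the threshold, while edgeR on the recovered reads gave 0.0644, a test that called 6.01% of all genes. The TSS call was lost in limma without Ctrl replicate 1, Kmt5b sKO replicate 1 or Kmt5b sKO replicate 3 (adjusted p up to 0.263). In those fits its difference was 1.64, 1.80 and 1.37, and 1, 16 and 46 of all genes were called. The other multiplexin, Col15a1, was weakly transcribed, at 0.33, 0.88 and 0.42 TPM in Ctrl against 0.72, 1.3 and 1.08 TPM in Kmt5b sKO gene bodies, with 0 to 4 TSS reads per library.

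Col25a1, a transmembrane collagen that developing muscle needs for its innervation, was next. Its TSS region had 6.29, 24.7 and 11.9 RPM in Ctrl against 28.2, 23.8 and 56.6 RPM in Kmt5b sKO libraries, and its gene body had 2.4, 12.5 and 5.79 TPM in Ctrl against 10.5, 11.3 and 16.3 TPM in Kmt5b sKO libraries. Ctrl replicate 2 overlapped the Kmt5b sKO libraries in both regions. The difference was 1.41 (SE 0.41, adjusted p = 0.114, limma) in the TSS region and 1.06 (SE 0.50, adjusted p = 0.364, limma) in the gene body. Without Ctrl replicate 2 the TSS region was called, with a difference of 1.89 and an adjusted p of 0.00999 in limma (3.28% of all genes were called there). Without Ctrl replicate 1 or Kmt5b sKO replicate 3 the TSS difference fell to 0.95 and 1.04 (adjusted p = 0.543 and 0.432, limma), and without Ctrl replicate 1 that in the gene body fell to 0.52 (adjusted p = 0.647, limma). Col23a1, also a transmembrane chain, was low, with 0.50, 0.56 and 0.34 TPM in Ctrl against 0.76, 1.93 and 0.68 TPM in Kmt5b sKO gene bodies, which did not overlap (difference 0.67, SE 0.33, adjusted p = 0.391, limma). Col17a1, the transmembrane collagen of epithelial hemidesmosomes, had 0 TSS reads in all 6 libraries and was not tested. Summed over the 4 transmembrane chains, the gene bodies held 13.0, 26.6 and 14.3 TPM in Ctrl against 31.7, 40.4 and 50.4 TPM in Kmt5b sKO libraries, groups that did not overlap. Most of that sum was Col13a1 and Col25a1, so it largely restates their differences. The multiplexin sum, mostly Col18a1, did not overlap either, at 4.88, 10.66 and 4.67 TPM in Ctrl against 12.15, 17.5 and 18.95 TPM. Nor did the FACIT sum, at 46.34, 43.15 and 48.95 TPM in Ctrl against 49.04, 55.15 and 57.16 TPM, although no FACIT chain was called. The sums of the fibrillar, type IV, type VI, type VII, short-chain and other chains overlapped.

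**Figure D2:**
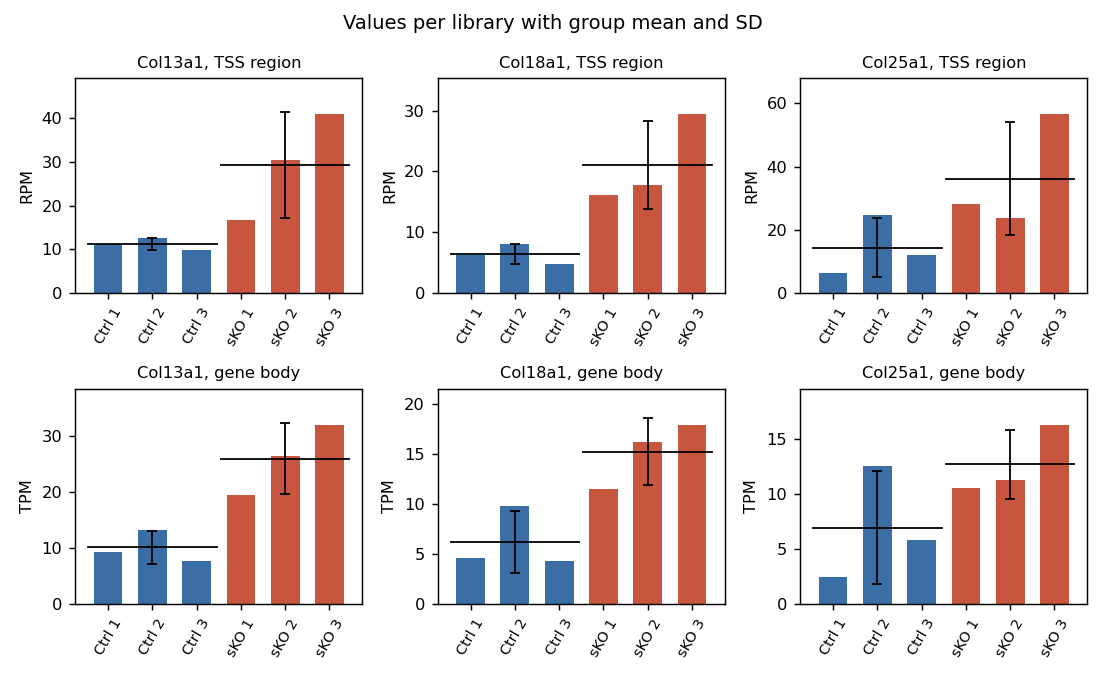
Values of Col13a1, Col18a1 and Col25a1 per library in the TSS region (top, RPM) and gene body (bottom, TPM), with a line at each group mean and an error bar of 1 SD (n = 3). The Kmt5b sKO libraries of Col13a1 and Col18a1 lie above all Ctrl libraries in both regions, and Ctrl replicate 2 of Col25a1, at 24.7 RPM and 12.5 TPM, overlaps them.

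Some sums of cell type markers also differed between the genotypes, and others overlapped. The summed gene body TPM of markers of differentiating muscle (Myog, Mymk, Mymx, Myh3, Acta1 and Ckm, 6 of 6 with values) was 1515 to 2788 in Ctrl against 2905 to 3826 in Kmt5b sKO libraries, with no member called. Sox10, a transcription factor of the neural crest and of Schwann cells, was called higher in the gene body, with 4.10, 3.64 and 2.14 TPM in Ctrl against 8.14, 15.5 and 8.80 TPM in Kmt5b sKO libraries (adjusted p = 0.0754, limma). Pericyte and smooth muscle markers (4 of 5 with values) summed to 26.9 to 51.1 TPM and 57.1 to 63.8 TPM, and tendon markers (2 of 3) to 48.3 to 69.1 TPM and 85.0 to 114.9 TPM. Nearly all of the tendon sum was Scx, while Mkx averaged 1.62 TPM in Ctrl against 1.58 TPM in Kmt5b sKO libraries. Endothelial markers (3 of 6) reached only 2.5 to 4.23 TPM and 4.38 to 5.05 TPM. Among the marker sums given here these 4 did not overlap between the genotypes. For single genes, 12.0% of all gene bodies lay wholly above Ctrl and 9.34% wholly below. Apart from Mkx, Mymx (290.1 TPM in Ctrl against 263.1 TPM) and Tek (0.93 against 0.76 TPM), the members of these sums had higher means in Kmt5b sKO libraries. The part of these markers in the collagen differences was not tested. In these bulk libraries more cells of a type and more transcription per cell cannot be told apart. Fibroblast markers, from the cells that make most collagen in muscle, summed to 61.2 to 75.2 TPM in Ctrl against 49.3 to 79.8 TPM in Kmt5b sKO libraries, with Dcn, Lum and Pi16 not among the listed genes. The sums for MuSC and myoblast markers (8 of 8), at 1574 to 2308 TPM and 2077 to 2790 TPM, overlapped too. Most of that sum was Myod1 and Des, at 1135 and 590.2 TPM on average. Of its members, 4 had a log2 difference above 0 and 4 below 0. Pax7, among the latter, averaged 38.6 TPM in Ctrl against 27.8 TPM in Kmt5b sKO libraries (adjusted p = 0.503, limma). The sum for blood cell markers (2 of 5), at 214 to 402 TPM and 320 to 326 TPM, also overlapped. The blood cell sum was almost all Cd68, at 318.6 TPM on average. Itgam averaged 0.52 TPM, and Ptprc, Adgre1 and Csf1r were not among the listed genes.

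No type IV chain was called, nor was Col7a1. Col4a1 and Col4a2, the chains of the common form of type IV collagen, lie head to head on chromosome 8 with starts 21 nt apart. Col4a1 had 24.9, 17.8 and 16.1 RPM in its TSS region in Ctrl against 24.9, 39.0 and 31.3 RPM in Kmt5b sKO libraries, a difference of 0.68 (SE 0.28, adjusted p = 0.357, limma). Col4a2 had 39.7, 21.8 and 22.7 RPM and then 19.0, 40.3 and 54.7 RPM, with an adjusted p of 0.797 in limma. In the gene body Col4a1 had 13.6, 11.0 and 6.89 TPM in Ctrl against 8.66, 17.7 and 14.7 TPM in Kmt5b sKO libraries. Col4a2 had 12.5, 11.0 and 6.57 TPM in Ctrl against 8.82, 16.8 and 13.2 TPM in Kmt5b sKO libraries. Both had their highest value in Kmt5b sKO replicate 2 and their lowest in Ctrl replicate 3, and the genotypes overlapped. Col4a5, a type IV chain on chromosome X and therefore not in the test, had 0.53, 0.48 and 0.49 TPM in Ctrl against 0.97, 1.0 and 0.57 TPM in Kmt5b sKO gene bodies, with 1 to 5 TSS reads. Fitted with chromosomes X and Y included, its gene body difference was 0.41 with an adjusted p of 0.487 in limma. Col7a1, the anchoring fibril of skin, had 3.30 TPM on average, and its groups overlapped in both regions.

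**Figure D3:**
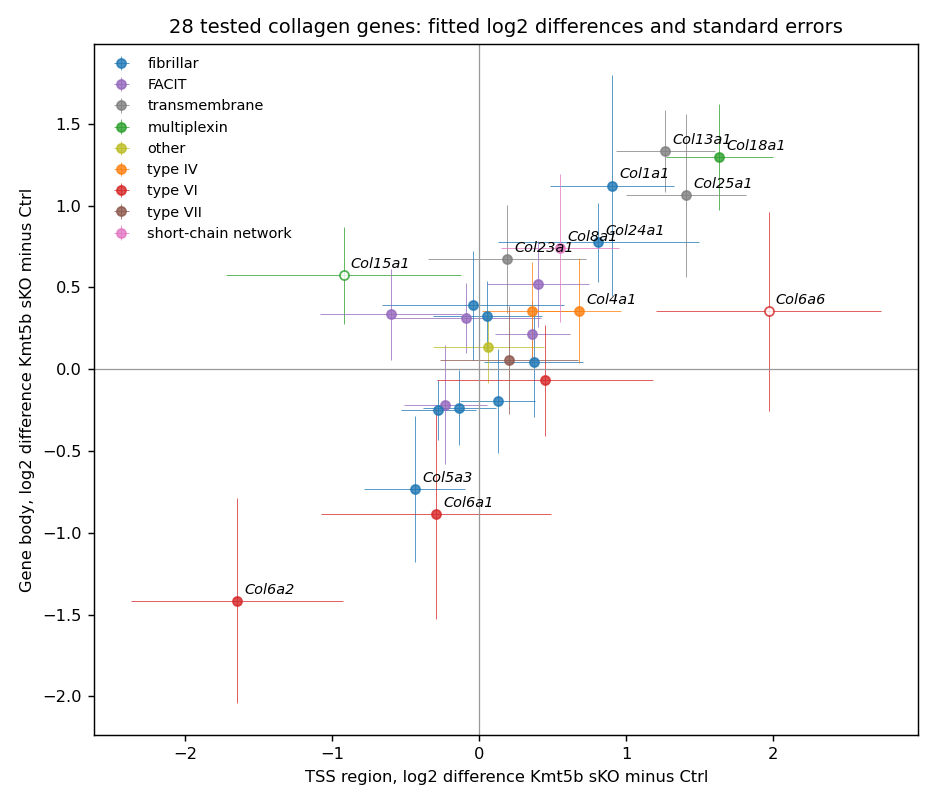
Fitted log2 differences (Kmt5b sKO minus Ctrl) of the 28 tested chains in the TSS region (horizontal) and gene body (vertical), 1 point per gene coloured by class, with bars of 1 SE. Col13a1 and Col18a1 lie at the upper right, at 1.27 and 1.33 and at 1.63 and 1.3, and Col6a2 lies at the lower left; open points (Col6a6 and Col15a1) have at most 3 TSS reads in 1 genotype, so their horizontal position is no measured fold.

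For the chains of types I and VI, the SD of the Ctrl gene bodies exceeded the difference between the group means. Col1a1, the main chain of type I collagen, had 1.75, 11.4 and 1.15 TPM in Ctrl against 7.84, 8.0 and 5.94 TPM in Kmt5b sKO gene bodies. In its TSS region it had 6.78, 32.2 and 8.71 RPM in Ctrl against 20.98, 25.1 and 25.8 RPM in Kmt5b sKO libraries. Ctrl replicate 2 lay above every Kmt5b sKO library and the other two Ctrl libraries below them, and neither region was called (adjusted p = 0.436 and 0.493, limma). Without Ctrl replicate 2, both were called, with TSS and gene body differences of 1.57 and 2.00 (adjusted p = 0.0207 and 0.0838, limma), where 3.28% and 2.10% of all genes were called. Without Ctrl replicate 1 the TSS difference of Col1a1 was 0.49 (adjusted p = 0.887, limma), and without Ctrl replicate 3 its gene body difference was 0.57 (adjusted p = 0.671, limma). Col6a1 had 5.48, 11.6 and 1.15 TPM in Ctrl against 2.17, 1.89 and 2.47 TPM in Kmt5b sKO gene bodies, and Col6a2 had 3.73, 8.68 and 0.92 TPM in Ctrl against 0.97, 0.55 and 1.38 TPM in Kmt5b sKO gene bodies. Ctrl replicate 3 lay within or below the Kmt5b sKO range for both. The differences were -0.88 (SE 0.64, adjusted p = 0.585, limma) and -1.42 (SE 0.63, adjusted p = 0.335, limma). Without Ctrl replicate 3 both were called lower, at -1.67 and -2.13 (adjusted p = 0.0516 and 0.0521, limma), as was Col5a3 at -1.23, and Col20a1 was called higher at 0.82, beside 6.71% of all genes called without that library. Without Ctrl replicate 2 the gene body differences were -0.24 for Col6a1, -0.78 for Col6a2 and -0.30 for Col5a3 (adjusted p = 0.881, 0.535 and 0.781, limma), and the TSS difference of Col6a1 turned from -0.29 to 0.67. The third usual chain of the type VI trimer, Col6a3, had 4.24, 7.52 and 2.53 TPM and then 4.53, 3.70 and 4.24 TPM, with no sign of a difference beyond the spread (-0.07, SE 0.34).

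The minor fibrillar chain Col24a1 had gene bodies of 0.59, 0.85 and 1.07 TPM in Ctrl against 1.42, 1.83 and 2.09 TPM in Kmt5b sKO libraries. The groups did not overlap, and the difference was 0.78 (SE 0.24), with an adjusted p of 0.181 in limma and 0.0698 in edgeR on the recovered reads. Its TSS region held 1 to 12 reads and overlapped. The other fibrillar chains, Col11a2 and Col27a1, averaged 4.28 and 2.80 TPM, with gene body differences of 0.32 and 0.39 that were within the spread between libraries. The FACIT chains Col12a1, Col9a3 and Col16a1 averaged 7.81, 2.76 and 2.49 TPM, and Col26a1 averaged 8.12 TPM, and none was called. On the same strand, Rxrb ends 1038 nt before Col11a2, Ogfr 1954 nt before Col9a3, Uqcrc1 3963 nt before Col7a1 and Arfgap1 4009 nt before Col20a1, and reads that run past those ends were not told apart. Col8a2 and Col28a1 had TSS means under 0.5 RPM, with at most 3 TSS reads in any library, and were not tested. By class, the median log2 difference in the gene body was 0.04 over 9 fibrillar, -0.48 over 4 type VI, 0.31 over 5 FACIT and 1.06 over 3 transmembrane chains.

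Chains of 1 collagen type differed in how evenly they were transcribed. Per length, Col1a2 exceeded Col1a1 7.27 to 54.7-fold in the gene body in every library. Type I collagen protein contains more of the chain that Col1a1 encodes, but these values measure nascent transcription only. The highest fold, in Ctrl replicate 3, rested on 27 Col1a1 reads, and the annotated gene Gm43921 overlaps Col1a2 on its strand. The ratio of Col1a1 to Col1a2 was 0.0493, 0.138 and 0.0183 in Ctrl against 0.132, 0.103 and 0.136 in Kmt5b sKO libraries. In the TSS region, where all genes have the same length, it was higher, between 0.163 and 0.577. Col4a1 and Col4a2 gave the most even ratio of the 5 pairs compared, from 0.982 to 1.11 over the 6 libraries. The ratio of Col6a1 to Col6a2 was 1.47, 1.34 and 1.25 in Ctrl against 2.24, 3.44 and 1.79 in Kmt5b sKO libraries, resting on as few as 9 Col6a2 reads. The ratio of Col5a1 to Col5a2 ran from 0.378 to 1.03 and that of Col3a1 to Col5a2, which lie tail to tail on chromosome 1 with 24615 nt between them, from 0.70 to 1.33.

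**Figure D4:**
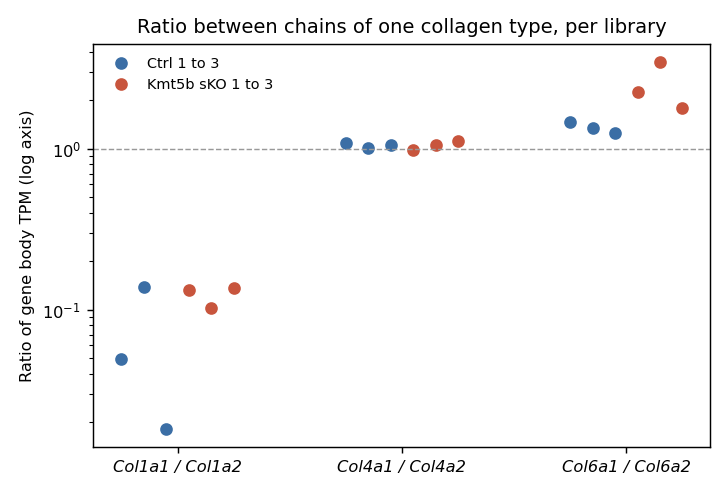
Ratio of gene body TPM (log axis) between chains of 1 collagen type, 1 point per library, Ctrl and Kmt5b sKO replicates 1 to 3 from left to right, with a dashed line at equal signal. The ratio of Col4a1 to Col4a2 stays between 0.982 and 1.11, while that of Col1a1 to Col1a2 runs from 0.0183 to 0.138.

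The pausing index divides the TSS value by that of the gene body and was available for 24 chains with reads in both regions of all libraries. It was called for 0 of 24 (0% of all 11698 genes were called) in limma, and 1 chain, Col23a1, had an unadjusted p under 0.05, beside 3.86% of all genes. Col23a1 had indices of 3.88, 6.16 and 7.24 in Ctrl against 3.45, 2.74 and 2.71 in Kmt5b sKO libraries, from 4 to 13 TSS reads (log2 ratio -0.92, adjusted p = 0.9997 in limma). The median index over the 24 chains was 1.80, 1.64 and 1.76 in Ctrl against 2.09, 1.91 and 1.57 in Kmt5b sKO libraries, beside 1.52, 1.47 and 1.55 and then 1.6, 1.61 and 1.5 over all genes. Chains differed far more than genotypes. Among these 24, the mean index was lowest for Col6a1 (0.374, from 1 to 11 TSS reads per library), Col8a1 (0.510) and Col3a1 (0.787). It was highest for Col11a2 (4.69), Col23a1 (4.36) and Col1a1 (4.07). Col6a3 and Col6a6, with 0 TSS reads in at least 1 library, had no index. Col13a1 had a mean index of 1.15 in Ctrl against 1.10 in Kmt5b sKO libraries, so its 2 regions differed between the genotypes by a like amount. For Col18a1 it was 1.11 and 1.38, with a log2 ratio of 0.34 (SE 0.29).

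Single libraries stood apart in collagen transcription. Ctrl replicate 2 was the highest of the 6 libraries for 9 of 28 chains in the gene body (32.1%, beside 19.9% of all genes), namely Col1a1, Col1a2, Col3a1, Col5a1, Col5a3, Col6a1, Col6a2, Col6a3 and Col12a1. Col5a2 and Col6a6, also of types V and VI, were highest in Ctrl replicates 3 and 1. Ctrl replicate 3 was the lowest for 12 of 28 (42.9%, beside 33.4% of all genes). Kmt5b sKO replicate 2 was the highest for 9 chains (32.1%, beside 12.8% of all genes) and Kmt5b sKO replicate 3 for 8 (28.6%, beside 19.5%).

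**Figure D5:**
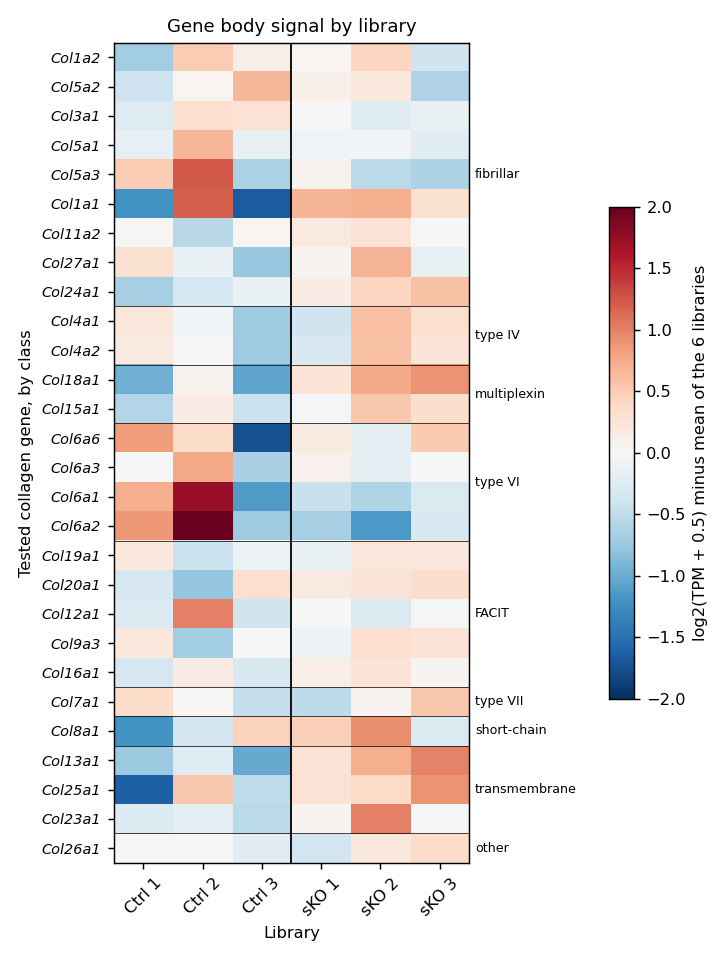
Gene body signal of the 28 tested chains as log2(TPM + 0.5) minus the mean of the 6 libraries, with libraries in columns and genes in rows by class. Ctrl replicate 2 is the highest library for 9 chains, most of them of types I, III, V and VI, and Ctrl replicate 3 the lowest for 12.

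Genes that modify, bind or degrade collagen and other related genes were taken from 5 lists. Over all tested genes, limma called 1.66% of TSS regions and 2.99% of gene bodies, and 11.0% and 15.9% had an unadjusted p under 0.05, so nothing particular to these lists can be read from 0 to 1 calls in each. Of 31 genes for collagen synthesis and processing 27 were tested, and 0 were called in either region in limma, with 3 TSS regions and 2 gene bodies at an unadjusted p under 0.05. The highest was Serpinh1, the collagen chaperone HSP47, with gene bodies of 214.9, 191.6 and 370.9 TPM in Ctrl against 250.3, 237.5 and 194.0 TPM in Kmt5b sKO libraries. Of 6 tested collagen receptors 0 were called in limma, with 2 in each region at an unadjusted p under 0.05, and Ddr1, a receptor tyrosine kinase that binds collagen, was the highest at 127.4 TPM on average. Of 6 tested genes of collagen degradation, 1 was called: Mmp2, a gelatinase that cuts type IV collagen, had 1.46, 1.81 and 1.39 TPM in Ctrl against 3.11, 3.74 and 2.93 TPM in Kmt5b sKO gene bodies (difference 0.87, SE 0.19, adjusted p = 0.0975, limma). Of 10 other basement membrane genes 0 were called in limma, with 2 in each region at an unadjusted p under 0.05. Among them Lama4, a laminin chain, had 0.36, 1.38 and 0.91 TPM in Ctrl against 2.10, 3.10 and 2.11 TPM in Kmt5b sKO gene bodies (adjusted p = 0.15, limma) and was picked out after its values were seen. Of 15 genes of the TGF-beta pathway, a main inducer of collagen genes, 0 were called in limma, with 2 TSS regions and 1 gene body at an unadjusted p under 0.05. The median gene body difference over the tested genes of these lists was -0.08 for synthesis, 0.20 for receptors, 0.35 for degradation, 0.24 for other basement membrane genes and 0.11 for the TGF-beta pathway, beside 0.02 over all genes.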

How the data were processed

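PRO-seq libraries of 3 Ctrl and 3 Kmt5b sKO MuSC samples were grouped by their labelled genotype. Per the labels and the methods, the authors used FastQC 0.11.8, Trimmomatic 0.39, STAR 2.6.1d on GRCm38 (1 random position for reads with several matches) and Picard 2.18.16, counted reads on the gene's strand, and listed 1 isoform per protein-coding gene. The deposited TSS values are RPM, although the authors call them TPM, and the deposited gene body values are TPM. No column was left unused.

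Genes on chromosomes X and Y or with a mean under 0.5 in either region were left out. log2(value + 0.5) was fitted with limma 3.58.1 (lmFit, eBayes with a trend) in R 4.3.3 over all 12451 genes, and the pausing index as a log2 ratio without a pseudocount. A fold on this scale understates the change of low genes. Whole reads were recovered from the steps between values (100% whole in the TSS region and in bodies under 2000 nt), and were tested with edgeR 4.0.16 and DESeq2 1.42.0 as alternatives. The median tested chain had 31.5 TSS reads and 775.5 gene body reads per library.

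Genes were named with every library's value where called, where the groups did not overlap with an unadjusted p under 0.05, where among the 10 highest gene bodies, on chromosome X or in a head-to-head pair; Col1a1, Col6a1, Col6a2, Col6a3, Col15a1, Col23a1 and Col25a1 were added after their values were seen. The members and gene lists were chosen with earlier results of these data known. Coordinates are 1-based on GRCm38, and all 32 listed transcripts were found in GENCODE M21. Col4a3bp and other genes that only begin with Col are not chains and were not counted. The fits were checked on simulated data. The summed level of 1 list of marker genes is not reported here. Python 3.11.15, numpy 2.4.6, pandas 2.3.3 and matplotlib 3.10.9 were also used.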

Additional observations from a re-analysis of the deposited data

How the results depend on the processing

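The 2 chains called in the TSS region became 0 without the filter on low values and 0 with eBayes without a trend, settings in which 0 of all genes were called. They became 1 (Col18a1) at an adjusted p under 0.05. When each library was left out in turn they became 0 to 4, where 1 to 408 of all genes were called. They remained the 2 chains called with pseudocounts of 0.1 and 1, a minimum mean of 2, chromosomes X and Y included, median centring, edgeR and DESeq2. The single chain called in the gene body became 2 with libraries centred on their medians, 3 with edgeR (Col13a1, Col18a1 and Col24a1), 5 with DESeq2 (these, Col23a1 and, lower, Col6a2), 0 at an adjusted p under 0.05, and 0 to 5 when each library was left out. Over all genes, the gene body calls were 372 in limma, 748 in edgeR and 1295 in DESeq2, and the TSS calls 207, 279 and 295. With the replicate block 0 chains were called in either region, and 0 of all genes; same-numbered samples of both genotypes did not deviate together (correlations of -0.16 to -0.03 in the TSS region and -0.33 to -0.15 in the gene body), so the numbers do not pair the samples. Leaving out 1 library moved the median difference of the chains between 0.06 and 0.33 in the TSS region and between 0.11 and 0.40 in the gene body, and that of the pausing index between -0.049 and 0.12. With edgeR and DESeq2 the gene body difference of Col1a2 was -0.0207 and -0.0268 and the TSS difference of Col5a2 -0.0128 and -0.0259, against values above 0 in limma. Leaving out 1 library turned the sign for 8 of 28 chains in the gene body, whose differences were up to 0.35 in size: Col1a2 (-0.30 to 0.31), Col5a1 (-0.38 to 0.037), Col5a2 (-0.45 to 0.090), Col6a3 (-0.41 to 0.29), Col6a6 (-0.42 to 0.86), Col7a1 (-0.20 to 0.34), Col12a1 (-0.47 to 0.23) and Col26a1 (-0.011 to 0.36). It did so for 11 of 28 in the TSS region, whose differences were up to 0.45 in size: Col1a2 (-0.13 to 0.76), Col5a1 (-0.35 to 0.047), Col5a2 (-0.13 to 0.39), Col6a1 (-0.98 to 0.67), Col6a3 (-0.26 to 0.98), Col7a1 (-0.16 to 0.59), Col11a2 (-0.36 to 0.49), Col16a1 (-0.52 to 0.40), Col23a1 (-0.18 to 0.47), Col26a1 (-0.25 to 0.37) and Col27a1 (-0.51 to 0.48). The causes were not tested. Fewer than 10 TSS reads lay behind 47 of 168 chain values, against 1 of 168 in the gene body.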
